A study of Homo sapiens with 13 samples.

Results

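RNA of TE-7 cells kept for 6 hr with interleukin-13 (IL-13) was set against RNA of TE-7 cells kept for 2 hr with it. These are 2 of the 13 samples of the series, chosen by their labels alone. TE-7 is an established human cell line that the labels call esophageal epithelial, grown in RPMI medium with fetal calf serum and treated with IL-13 at 100 ng/ml. Cells without IL-13 were sequenced at the same times and serve as the control pair, and both treatments were also sequenced at 24 hr. The remaining samples are chromatin immunoprecipitation (ChIP-seq) libraries of H3K4me3, H3K9Ac and H3K27Ac made after 6 hr in treated and control cells, and input DNA. Each group is 1 library, and the labels do not say whether they are separate cultures. No difference given here has a replicate check, and no p-value was computed.

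IL-13 is a cytokine of allergic inflammation. It binds a receptor made of IL-4R alpha and IL-13R alpha 1, which activates JAK kinases and the transcription factor STAT6, and in esophageal epithelium it is known for inducing the eosinophil attractant CCL26. Immediate early genes are another class with fast kinetics in epithelial cells: they encode transcription factors, growth factors and feedback inhibitors, are switched on within minutes of a stimulus such as serum or a growth factor, and give short-lived mRNAs that decline within hours.

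The files hold RPKM, reads per kilobase of gene and per M mapped reads, for 23637 gene symbols. The tables of 2 hr and 6 hr were made separately, so the log2 ratio of RPKM + 0.1 at 6 hr over 2 hr was centred on its median over expressed genes, which was 0.10 before centring. A gene was compared when it reached an RPKM of at least 1 in either library and spanned at least 300 bp, which left 11896 genes. It was called higher or lower when the centred ratio was at least 1 in size, which is 2-fold, and its RPKM was at least 1 in the higher library. Ratios below are on this centred log2 scale, which understates the change of genes near 0.1 RPKM, and folds are plain ratios of RPKM without centring.

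At 6 hr of IL-13, 383 genes were lower than at 2 hr, which is 3.22% of those compared, and 24 were higher, which is 0.202%, making 407 in either direction (3.42%). The quartiles of all 11896 ratios were -0.21 and 0.16, and the central 95% ran from -1.13 to 0.53. Of the lower genes, 68 were at least 4-fold lower and 16 at least 8-fold lower, and 202 had stood at 10 RPKM or more at 2 hr. The median of the higher genes was 1.37 RPKM at 2 hr and 3.33 at 6 hr. That of the lower genes was 11.3 and 3.92 RPKM, and over all genes compared it was 10.9 and 11.3. The direction of the call itself enters the medians of the called genes. In these whole-culture RNA samples, fewer cells that carry a transcript and less transcript per cell cannot be told apart.

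**Figure D1:**
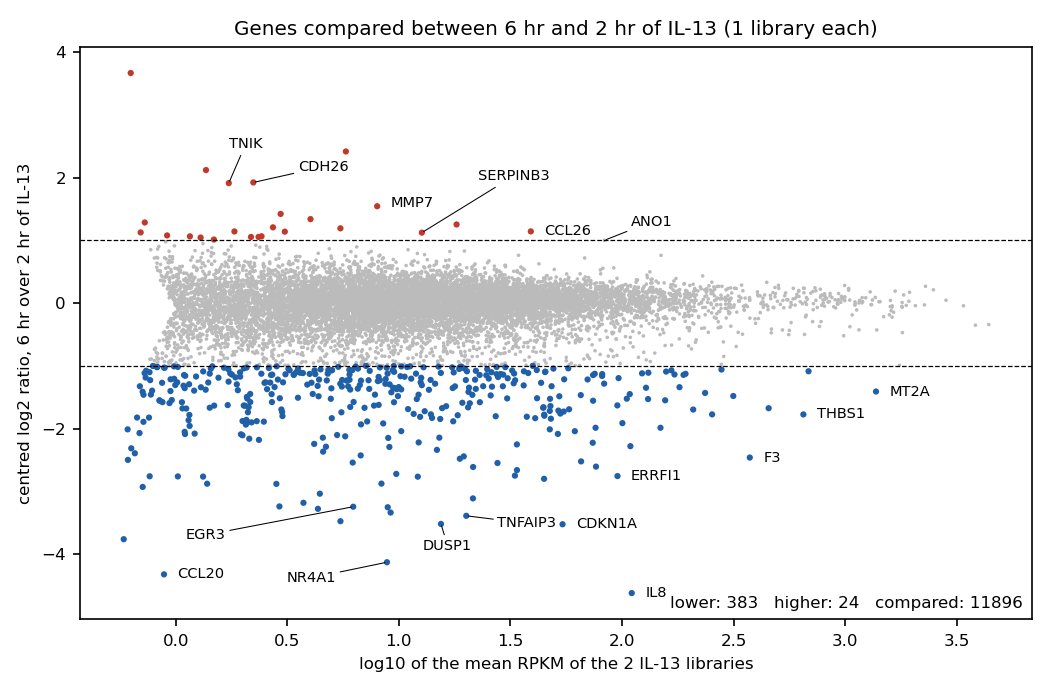
Each point is 1 of the 11896 genes compared, with the log10 of its mean RPKM over both IL-13 libraries on the x axis and its centred log2 ratio, 6 hr over 2 hr, on the y axis. Blue points are the 383 genes called lower and red points the 24 called higher, the dashed lines mark 2-fold, and the lower genes reach the most abundant transcripts while the higher ones lie mostly at the left.

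Depth was read from the fixed steps on which low RPKM values lie. The library of 2 hr of IL-13 lay on the steps of 2 read sets of 16.1 and 13.0 megareads (M reads), and that of 6 hr on 2 sets of 16.4 and 18.3 M reads, so that 1 RPKM stands for 29.1 and 34.7 reads per kilobase. No value above 0 was identical between these 2 libraries. The controls of 2 and 6 hr had 359 identical values above 0 and a step in common, as if a read set of 15.7 M reads had entered both, which would draw a control ratio towards 0. Squamous markers were abundant, with KRT5 at 1627 RPKM at 2 hr and 1528 at 6 hr of IL-13, KRT6A at 764 and 666, and TP63 at 101 and 87.6. Of 15 columnar markers 5 were compared, and their keratins were abundant too, KRT8 at 576 and 726 RPKM and KRT18 at 437 and 491. The brain genes GFAP and SNAP25, at 2.06 and 3.57 RPKM in the 2 hr control, were listed at 0 at 2 hr of IL-13 and at 0.0570 and 0.0133 at 6 hr. Of 15 leukocyte markers 1 reached an RPKM of 1, and of 10 endothelial markers none did. The summed fibroblast list went from 238 to 66.1 RPKM, almost wholly through FN1, the matrix protein fibronectin, at 234 and 63.1 RPKM.

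The promoters of 4 lower genes are shown because each gene belongs to a group below, and because their control by serum, inflammatory or stress signals is well studied. They are single examples and do not stand for the promoters of those groups. The sequences are the 250 bases before the start in RefSeq (GRCh38.p14), 5′ to 3′ on the strand of the gene. Capitals mark matches to a CArG box, the binding sequence of serum response factor, in EGR1 (chr5:138465229-138465478, plus strand). They mark matches to an NF-kB site, to the AP-1 sequence TGANTCA and to the TATA box TATAAA in IL8, named CXCL8 in RefSeq (chr4:73740319-73740568, plus strand). In TNFAIP3 (chr6:137867009-137867258, plus strand) they mark 3 NF-kB matches, a pair of which overlap. In DUSP1 (chr5:172771196-172771445, minus strand) they mark the cyclic AMP response element (CRE) TGACGTCA and TATAAA.
EGR1: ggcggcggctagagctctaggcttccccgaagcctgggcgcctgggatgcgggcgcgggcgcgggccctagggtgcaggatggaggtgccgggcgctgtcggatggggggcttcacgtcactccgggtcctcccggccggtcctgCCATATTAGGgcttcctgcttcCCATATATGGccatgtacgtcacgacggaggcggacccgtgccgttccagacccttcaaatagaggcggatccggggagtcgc
IL8: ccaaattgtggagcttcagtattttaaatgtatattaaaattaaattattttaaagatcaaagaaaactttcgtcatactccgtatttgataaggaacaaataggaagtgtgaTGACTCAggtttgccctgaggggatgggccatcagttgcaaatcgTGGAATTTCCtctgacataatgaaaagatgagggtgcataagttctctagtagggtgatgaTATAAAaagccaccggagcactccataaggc
TNFAIP3: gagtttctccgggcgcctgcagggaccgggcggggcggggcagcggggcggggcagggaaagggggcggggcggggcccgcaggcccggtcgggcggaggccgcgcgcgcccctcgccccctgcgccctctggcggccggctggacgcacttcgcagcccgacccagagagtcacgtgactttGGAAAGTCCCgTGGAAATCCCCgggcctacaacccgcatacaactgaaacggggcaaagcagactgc
DUSP1: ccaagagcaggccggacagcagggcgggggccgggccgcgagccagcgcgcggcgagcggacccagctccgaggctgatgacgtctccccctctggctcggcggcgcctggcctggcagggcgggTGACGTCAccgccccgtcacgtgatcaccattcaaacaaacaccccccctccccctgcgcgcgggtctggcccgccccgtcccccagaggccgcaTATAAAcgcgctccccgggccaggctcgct
The TATAAA match begins 31 bases before the start in IL8 and 30 in DUSP1. The 2 CArG boxes of EGR1 begin 105 and 83 bases before its start. Among 15 promoters of immediate early factors searched, 1 held a CArG box. These are matches of letters and not measured binding.

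Immediate early transcription factors held more lower genes than any other list. Of 33 listed, 30 were compared, of which 19 were called lower and 0 higher, and the median ratio was -1.34. NR4A1, an orphan nuclear receptor (chromosome 12, 52445186 to 52453291, plus strand, hg19), stood at 16.8 RPKM at 2 hr and 0.929 at 6 hr of IL-13, a ratio of -4.13. JUN, a subunit of AP-1 (chromosome 1, 59246463 to 59249785, minus strand), went from 31.6 to 5.96 RPKM. JUN has no intron, so its reads can be recovered, and counting error alone gave its ratio of -2.48 an interval of -2.60 to -2.36 (95%). EGR1, the zinc finger factor whose promoter is shown above, went from 30.8 to 11.9 RPKM. Its relatives EGR3 and EGR2 moved further, EGR3 from 11.3 to 1.19 RPKM and EGR2 from 7.91 to 0.942.

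The AP-1 and small MAF factors differed in size among themselves. FOS, which pairs with JUN, was at 7.68 and 3.46 RPKM, while FOSB was at 10.6 and 1.86. FOSL1, the most abundant of the family here, was at 386 RPKM at 2 hr and 121 at 6 hr. MAFF, a small MAF protein, was at 38.3 and 4.65 RPKM, a ratio of -3.11, and its relative MAFK at 30.1 and 13.8, a ratio of -1.22. No member of the list had a ratio above 0, and those that missed the limit include MYC, a growth regulator, at 172 and 96.1 RPKM, KLF4, an epithelial zinc finger factor, at 23.3 and 18.6, and IER2 at 41.5 and 25.2.

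Feedback inhibitors of MAP kinases were lower with them. Of 17 compared, 9 were lower and 0 higher, with a median ratio of -1.59. DUSP1, a phosphatase of p38 and JNK kinases (chromosome 5, 172195093 to 172198203, minus strand, hg19), stood at 28.3 RPKM at 2 hr and 2.55 at 6 hr, 11.1-fold lower. DUSP5 and DUSP6, phosphatases of ERK, stood at 46.8 and 8.48 RPKM and at 74.0 and 22.0 RPKM. ERRFI1, an inhibitor of the EGF receptor, went from 164.8 to 25.98 RPKM. Of the 17, 15 had ratios below 0, though not all by 2-fold, and DUSP16 had one of -0.12. The 2 above 0 were SPRED2 and LRIG1, inhibitors of the same pathway, with ratios of 0.06 each.

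Ligands of the EGF receptor were lower too. HBEGF, a membrane-bound ligand, stood at 10.1 RPKM at 2 hr and 0.877 at 6 hr of IL-13. AREG, amphiregulin, stood at 130 and 22.8 RPKM, EREG, epiregulin, at 3.20 and 0.727, and TGFA at 37.9 and 17.8. These 4 were the only ones called of 8 compared in the family, with a median of -0.92.

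Inflammatory genes held the gene with the lowest ratio of all. IL8 (chromosome 4, 74606223 to 74609433, plus strand, hg19), the neutrophil chemokine, stood at 212 RPKM at 2 hr and 9.11 at 6 hr of IL-13, 23.3-fold lower, with a ratio of -4.62. Of 28 cytokine and NF-kB target genes compared, 12 were lower and 0 higher, with a median of -0.71. TNFAIP3, the NF-kB inhibitor A20, stood at 36.5 and 3.63 RPKM. PTGS2, the inducible cyclooxygenase, stood at 16.1 and 1.72, IL11, a cytokine of the IL-6 family, at 14.7 and 2.05, and IL24, of the IL-10 family, at 7.90 and 0.781. CCL20, a chemokine for dendritic cells, was at 1.77 RPKM at 2 hr and listed at 0 at 6 hr, so no fold is given and its ratio depends on the value added to RPKM.

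Of 8 chemokines compared, 5 were lower, namely IL8, CCL20, CCL5, CXCL3 and CXCL2, and 1 was higher, CCL26. The median was -1.09, and -0.34 over those of at least 5 RPKM. CXCL1, a close relative of IL8, stood at 88.4 RPKM at 2 hr and 74.7 at 6 hr, a ratio of -0.34. CXCL16 stood at 25.6 and 27.3 RPKM.

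Genes that shorten the life of mRNA or slow division were lower too, 7 of 12 compared. ZFP36, which binds AU-rich elements and marks mRNAs for decay, stood at 25.1 RPKM at 2 hr and 10.6 at 6 hr, and its relative ZFP36L1 at 82.5 and 20.7. BTG1, an antiproliferative factor, stood at 9.28 and 3.26 RPKM, and GADD45A, a stress sensor, at 69.4 and 25.7.

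Targets of serum response factor, YAP and TGF-beta were lower in 7 of 23 compared and higher in none, with a median of -0.71. THBS1, the matrix protein thrombospondin-1, was among the most abundant transcripts of the cells, at 990 RPKM at 2 hr and 309 at 6 hr. F3, tissue factor of the clotting cascade, went from 626 to 121 RPKM. CYR61, a matricellular YAP target, went from 97.6 to 25.3 RPKM, and TAGLN, an actin-binding protein, from 71.2 to 24.3. PLAU, the urokinase that activates plasminogen, stood at 179 and 39.2 RPKM, and its receptor PLAUR at 111 and 20.5. INHBA, the activin A subunit, stood at 57.2 and 9.01 RPKM, and FST, its antagonist follistatin, at 94.3 and 36.4. PLAU, PLAUR, INHBA and FST belong to a list of 23 AP-1 targets, proteases and integrins, of which 9 were lower.

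**Figure D2:**
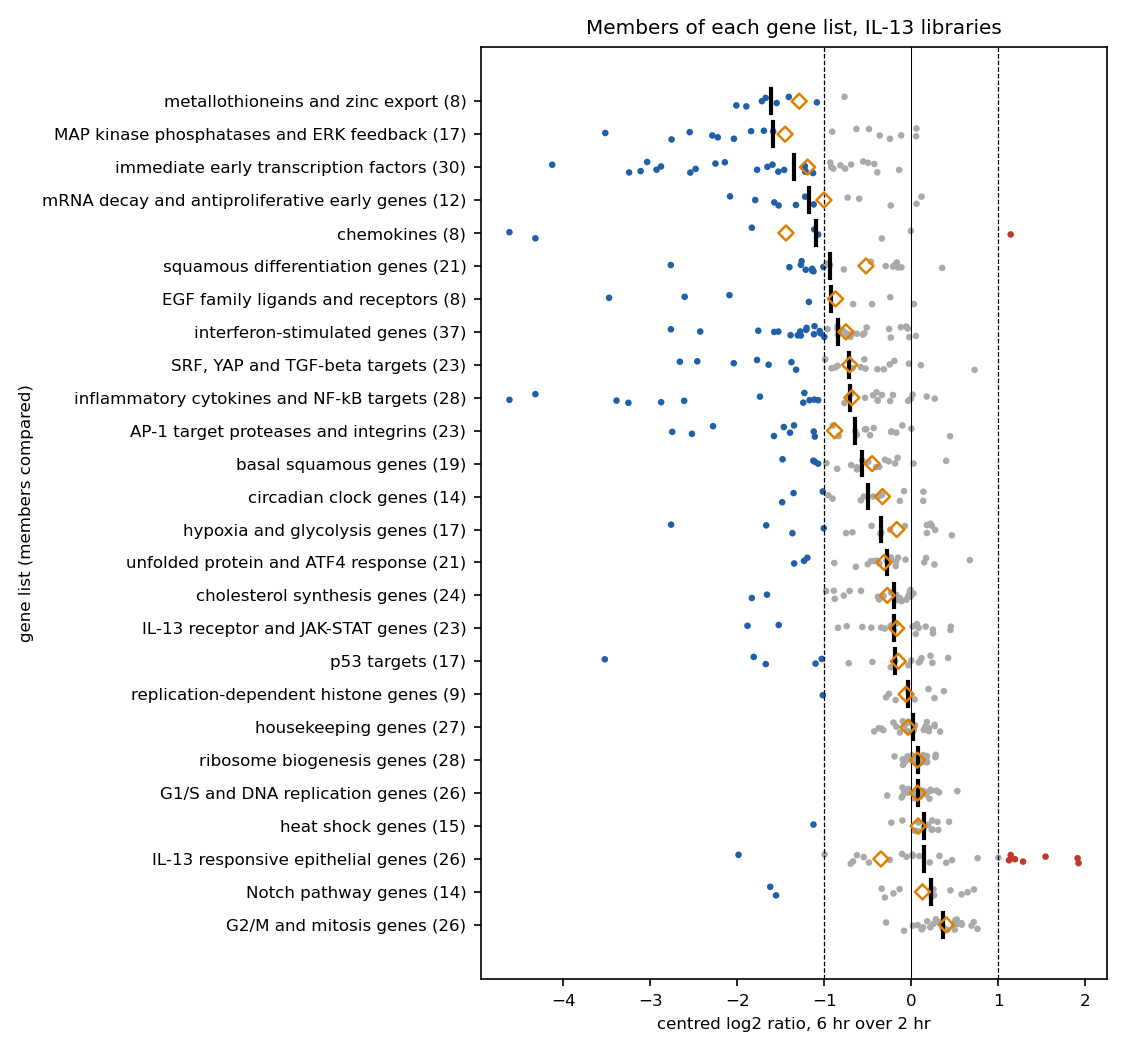
For each gene list on the y axis, with the number of members compared in brackets, points are the members' centred log2 ratios in the IL-13 libraries, the black bar is their median, and the orange diamond is the median of the same members in the control pair. Blue points are called lower and red points higher, and dashed lines mark 2-fold; 5 lists, from metallothioneins to chemokines, have medians beyond 2-fold lower, and the IL-13 responsive list has its bar at 0.15 and its diamond at -0.35.

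Stress and metabolic lists were lower in part, and their counts stand beside 3.22% of all genes compared. CDKN1A, the cell cycle inhibitor p21, stood at 99.1 RPKM at 2 hr and 9.12 at 6 hr of IL-13, a ratio of -3.52, and with GDF15, a stress cytokine, at 23.5 and 7.79 it was among 5 lower of 17 p53 targets compared. That list's median was only -0.18. Of 17 hypoxia and glycolysis genes 4 were lower, among them VEGFA, the angiogenic growth factor, at 31.3 and 12.9 RPKM, and ANGPTL4, an inhibitor of lipoprotein lipase, at 1.84 and 0.205. Of 21 genes of the unfolded protein and ATF4 response 3 were lower, for example ASNS, asparagine synthetase, at 132 and 61.4 RPKM. Of 24 cholesterol genes 2 were lower, among them INSIG1, which holds back SREBP, at 62.8 and 18.8 RPKM. Of 14 circadian clock genes 3 were lower, NR1D1 at 6.37 and 2.37 RPKM, BHLHE40 at 24.6 and 10.24, and ARNTL at 14.3 and 7.49. In the control pair the genes called lower were 4 of the p53, 3 of the hypoxia and 3 of the unfolded protein list. They were 3 of the cholesterol and 2 of the clock list. ARNTL, with BBC3 of the p53 list, PFKFB4 of the hypoxia list and LAMB3 of the basal list, lost its call when the ratios were not centred.

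Interferon-stimulated genes were lower in 16 of 37 compared, with a median of -0.85 and 1 member above 0. MX2, an antiviral GTPase, stood at 11.3 RPKM at 2 hr and 2.17 at 6 hr, IFI6 at 80.5 and 25.3, and XAF1 at 2.37 and 0.288. OAS2, a sensor of double-stranded RNA, stood at 17.6 and 6.46 RPKM. The IFIT genes, which bind foreign RNA, were not lower in this way: IFIT2 stood at 18.1 and 19.0 RPKM and IFIT3 at 34.9 and 35.9, and BST2, which tethers virus particles, at 201 and 223. OASL lay just inside the limit, at 51.9 and 27.7 RPKM with a ratio of -1.0005.

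Genes of squamous differentiation were lower in 9 of 21 compared, and 1 of the 21 was called lower in the control pair. OVOL1, a zinc finger repressor of the differentiating layers, stood at 21.1 RPKM at 2 hr and 3.23 at 6 hr of IL-13, and in the control at 23.2 and 4.33. The other 8 did not pass the limit without IL-13. ZNF750, a differentiation factor, stood at 3.53 and 1.52 RPKM with IL-13 and at 4.24 and 3.05 in the control. GRHL3, a barrier transcription factor, stood at 1.24 and 0.495 with IL-13 and 1.67 and 1.21 in the control, and KRT1, a keratin of cornifying cells, at 2.44 and 1.13 with IL-13 and 2.62 and 1.85 in the control. CALML5, a calcium-binding protein of differentiating keratinocytes, stood at 1.39 and 0.503 with IL-13 and 1.63 and 1.80 in the control, with ratios of -1.402 and 0.04. The list's median was -0.94 with IL-13 and -0.52 in the control, and whether the arms differ was not tested. With a minimum RPKM of 5 the IL-13 median was -0.46. A read set common to both controls, as described above, would draw the control ratios towards 0. With 1 in place of 0.1 added to RPKM, ZNF750, GRHL3, SPRR2A and CALML5 lost their calls.

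Basal squamous genes were lower in 4 of 19, beside 3.22% of all genes, and in 2 of 19 in the control pair. Among the 4 were parts of the anchor to the basement membrane. LAMA3 and LAMB3, which encode laminin chains, stood at 456 and 221 RPKM at 2 hr and at 174 and 112 at 6 hr. ITGA6, an integrin subunit that binds laminin, stood at 259 and 126. The Notch pathway was split: JAG1, a ligand, stood at 109 and 39.5 RPKM and NOTCH3, a receptor, at 12.1 and 4.14, whereas NOTCH1 had a ratio of 0.23 and HES1, a target gene, one of 0.65.

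The metallothioneins, small cysteine-rich proteins that hold zinc and copper, form a cluster on chromosome 16 and were lower together. This list was put together after their values had been seen. Of 13 genes, including the zinc exporter SLC30A1, 8 were compared and 7 were lower, with a median of -1.61. MT2A stood at 1960 RPKM at 2 hr and 788 at 6 hr of IL-13, MT1X at 680 and 228, and MT1E at 911 and 459. SLC30A1, which like the metallothioneins is known to be induced by zinc through the factor MTF1, stood at 75.1 and 19.8 RPKM. MT1F, at 53.2 and 33.4 RPKM, missed the limit with a ratio of -0.77. The control pair showed like values, with MT2A at 2140 and 838 RPKM and SLC30A1 at 72.0 and 16.7. The genes of this family are alike in sequence, and the authors' counting could share reads among them.

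The MT2A promoter is shown for its repeated metal response element core, TGCNCNC, searched on both strands. The 250 bases before the start (chr16:56608334-56608583, GRCh38.p14, plus strand, RefSeq) hold 7 matches, in capitals together with TATAAA.
MT2A: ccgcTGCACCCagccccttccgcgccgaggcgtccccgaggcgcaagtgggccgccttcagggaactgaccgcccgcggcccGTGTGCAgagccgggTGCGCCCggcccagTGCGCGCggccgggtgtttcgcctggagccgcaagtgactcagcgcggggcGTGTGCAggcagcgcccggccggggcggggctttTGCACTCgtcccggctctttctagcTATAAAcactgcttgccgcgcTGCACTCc
A single match was common, at 57.7% of all promoters, but 7 or more were found in 0.0900% of them.

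Several lists did not move. Of 26 genes of the G1/S step and DNA replication, 28 of ribosome biogenesis and 27 housekeeping genes, 0 were called in either direction, with medians of 0.08, 0.07 and 0.02. The 26 genes of G2/M and mitosis also had no call, but 24 of them had ratios above 0 and their median was 0.37, beyond the upper quartile of all genes at 0.16. PLK1, a mitotic kinase, stood at 106 RPKM at 2 hr and 193 at 6 hr of IL-13, AURKA, another, at 49.3 and 86.7, and CCNB1, a mitotic cyclin, at 98.4 and 135. The control values were close to these, with PLK1 at 107 and 193 RPKM, AURKA at 50.7 and 90.3 and CCNB1 at 101 and 139.

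The 24 higher genes included known epithelial targets of IL-13. Of 26 compared on a list of IL-13 responsive epithelial genes, 7 were higher and 1 lower, with a median of 0.15, and in the control pair 0 of the list were higher and 5 lower, with a median of -0.35. The list was drawn up with earlier results of these same libraries in view and is not independent evidence of its direction. CCL26, eotaxin-3 (chromosome 7, 75398842 to 75419064, minus strand, hg19), stood at 23.2 RPKM at 2 hr and 54.8 at 6 hr of IL-13, against 5.41 and 6.27 in the control. CDH26, a cadherin of inflamed epithelium (chromosome 20, 58571417 to 58588168, plus strand), stood at 0.822 and 3.63 RPKM, a ratio of 1.92, against 0.223 and 0.312 in the control. MMP7, the epithelial protease matrilysin (chromosome 11, 102391239 to 102401478, minus strand), stood at 3.83 and 12.2 RPKM, 3.17-fold higher, against 1.35 and 1.09.

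TNIK, a kinase of Wnt signalling (chromosome 3, 171064723 to 171178197, minus strand, hg19), differed from these in when it parted from the control. At 2 hr it stood at 0.629 RPKM in both the control and the IL-13 library, and at 6 hr at 0.522 and 2.83. ALOX15, the 15-lipoxygenase of arachidonic acid metabolism, stood at 0.359 and 1.10 RPKM with IL-13 and 0.167 and 0.314 in the control. With 1 added to RPKM its ratio of 1.28 became 0.54, under the limit. Of the 24 genes, 10 were already at least 2-fold above the control at 2 hr and 13 were at 6 hr. The IL-13 values that chose the 24 also enter these ratios, so the counts are a description. The share over all genes was not computed.

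Protease inhibitors of the serpin B cluster on chromosome 18 differed in direction. SERPINB3 and SERPINB4, the squamous cell carcinoma antigens, stood at 7.58 and 17.8 RPKM and at 3.14 and 7.80 RPKM with IL-13, against 1.47 and 1.2 and 0.496 and 0.413 in the control. SERPINB13, headpin, stood at 10.18 and 26.1 with IL-13 and 5.23 and 6.64 in the control. SERPINB2, the plasminogen activator inhibitor PAI-2 of the same cluster, was lower instead, at 120 and 32.3 RPKM with IL-13 and 98.6 and 21.1 in the control. SERPINB3 and SERPINB4 are near-identical genes and can share reads, so their values are uncertain as separate measurements. Their likeness extends to the 250 bases before the start (GRCh38.p14, minus strand, RefSeq), at chr18:63661894-63662143 for SERPINB3 and chr18:63644257-63644506 for SERPINB4, which differ at 3 bases (98.8% identity), in capitals.
SERPINB3: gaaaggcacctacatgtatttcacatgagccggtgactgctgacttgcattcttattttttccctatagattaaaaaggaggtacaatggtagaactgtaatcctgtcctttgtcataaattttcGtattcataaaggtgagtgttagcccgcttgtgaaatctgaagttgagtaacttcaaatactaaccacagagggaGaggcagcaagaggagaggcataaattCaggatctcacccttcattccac
SERPINB4: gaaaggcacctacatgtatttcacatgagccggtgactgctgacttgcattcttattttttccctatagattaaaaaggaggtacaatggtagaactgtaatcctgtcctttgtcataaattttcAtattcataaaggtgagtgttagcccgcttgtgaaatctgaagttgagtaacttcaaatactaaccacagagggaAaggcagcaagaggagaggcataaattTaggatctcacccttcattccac
Neither holds any of the 7 sequences searched. The MMP7 promoter (chr11:102530748-102530997, minus strand) is shown beside them as that of a higher gene with both an AP-1 match and a TATA box, in capitals.
MMP7: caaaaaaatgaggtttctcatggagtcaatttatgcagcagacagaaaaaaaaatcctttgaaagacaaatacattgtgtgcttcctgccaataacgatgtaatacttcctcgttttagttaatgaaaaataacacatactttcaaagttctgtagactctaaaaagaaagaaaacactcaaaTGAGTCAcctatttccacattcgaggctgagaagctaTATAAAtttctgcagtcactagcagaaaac
Its AP-1 match begins 67 bases and its TATAAA 30 bases before the start.

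Other higher genes were of lower abundance or uncertain. DLX3, a homeobox factor of epithelial differentiation, stood at 1.05 and 2.62 RPKM, and S1PR5, a receptor for sphingosine 1-phosphate, at 1.53 and 3.93, while their controls stood at 1.38 and 2.35 and at 2.49 and 4.37. With 1 added to RPKM both fell under the limit, at 0.73 and 0.88, as did ANXA8, a calcium-dependent membrane-binding protein, at 0.85. TMX2-CTNND1, DYX1C1-CCPG1 and DNAJC25-GNG10 are read-through transcripts that overlap their component genes, and reads of one can be counted for another. PAPSS2, which makes the sulfate donor for glycosaminoglycans, was the member nearest to the limit, at 0.903 and 2.06 RPKM with a ratio of 1.01. ANO1, a calcium-activated chloride channel, lay just outside at 53.04 and 113 RPKM with a ratio of 0.9999, against 31.8 and 31.7 in the control.

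**Figure D3:**
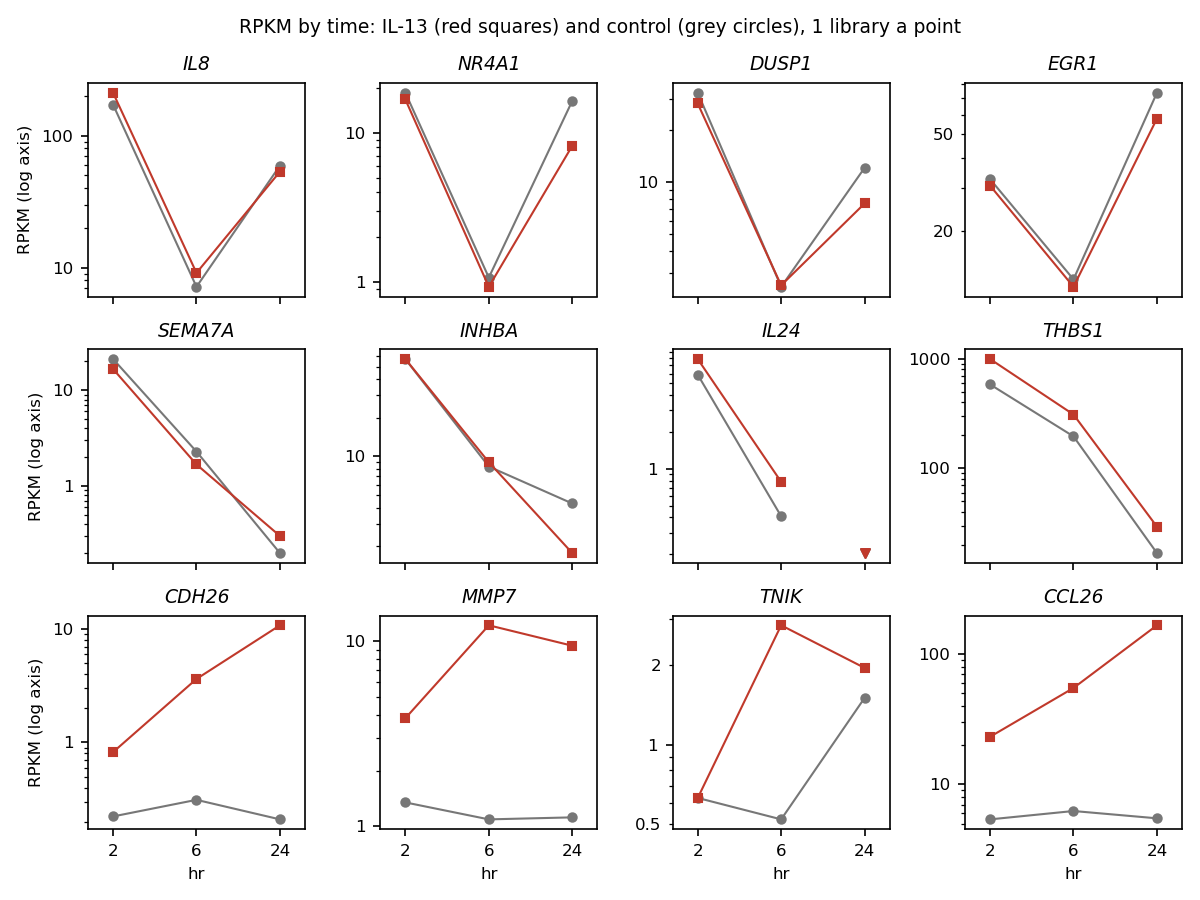
RPKM on a log axis at 2, 6 and 24 hr for 12 genes, with 1 library a point, red squares for IL-13 and grey circles for the control, and IL24 listed at 0 in both 24 hr libraries (triangle at the foot of its panel, the same place for both). The top row is lowest at 6 hr in both arms, the middle row is lower still at 24 hr, and in the bottom row the IL-13 line lies above the control at 6 and 24 hr.

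Some targets that stood above the control at 2 hr were not called higher at 6 hr of IL-13. HAS3, which makes hyaluronan, went from 135 RPKM at 2 hr to 89.0 at 6 hr, a ratio of -0.70, against 23.9 and 23.4 in the control. HAS2, its relative, stood at 80.5 and 43.04, a ratio of -0.997 just short of the limit, against 30.7 and 7.77. SOCS1, a feedback inhibitor of JAK kinases, stood at 9.42 and 6.87 RPKM, and CISH, another of that family, at 16.1 and 14.5. GCNT3, a mucin glycosyltransferase, had a ratio of 0.32, at 2.12 and 2.87 RPKM. Of these 5 genes none was called, and all 5 stayed above the control at both times. The fold of IL-13 over control went from 2.62 at 2 hr to 5.54 at 6 hr for HAS2. For GCNT3 it went from 15.04 to 39.9, with controls of only 0.141 and 0.0720 RPKM. For HAS3, SOCS1 and CISH it was smaller at 6 hr than at 2 hr.

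Most genes of the receptor and its signalling chain lay within 2-fold, with a median ratio of -0.20. Of 23 genes compared, 2 were lower, beside 3.22% of all genes, and the same 2 were called lower in the control pair. With IL-13, PIM1, a STAT-induced kinase, stood at 27.2 and 7.81 RPKM, and IRS2, a docking protein of the receptor, at 7.27 and 2.64. IL4R stood at 29.2 RPKM at 2 hr and 26.4 at 6 hr, IL13RA1 at 19.2 and 17.6, and STAT6 at 38.3 and 41.5. STAT2, which acts in interferon signalling, stood at 10.6 and 6.25 RPKM, short of the limit.

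Without IL-13, 327 of 11849 genes were lower at 6 hr than at 2 hr (2.76%) and 8 were higher (0.0675%), 335 in either direction (2.83%). The pairs share no library, but a read set may have entered both controls, as described above. Of the 383 genes lower with IL-13, 275 were also called lower in the control pair, which is 71.8% of these 383 and 84.1% of the 327. In the control 381 of the 383 had a ratio under 0, the exceptions being CALML5 and the read-through transcript FKBP1A-SDCBP2. Their median ratio was -1.37 with IL-13 and -1.27 in the control. IL8 stood at 172 and 7.15 RPKM in the control, NR4A1 at 18.6 and 1.07, DUSP1 at 32.7 and 2.501, and CDKN1A at 112 and 12.5, all within 1.5-fold of the IL-13 values at the same time.

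Few of the 24 higher genes were called higher in the control as well. Of them 15 reached 1 RPKM in a control library of the pair and could be called there. Of the 24, IGFBP3, a carrier of insulin-like growth factors, and PLA2G4B, a cytosolic phospholipase, were the 2 also called higher in the control, and IGFBP3 differed more there, at 1.51 and 5.78 RPKM against 1.46 and 3.39 with IL-13. In 17 of the 24 the control ratio was above 0. DYX1C1-CCPG1, under 1 RPKM in both controls of the pair, had one of 2.47 there, against 2.12 with IL-13. In 7 of the 24 the control ratio was under 0, among them TNIK, MMP7, SERPINB3, SERPINB4 and ANXA8. The median ratio of the 24 was 1.17 with IL-13 and 0.28 in the control. Across all 11896 genes, 33 differed between the arms by 1 or more in centred ratio, of which 12 were among the 24 higher and 5 among the 383 lower. The IL-13 ratio that chose the 24 and the 383 is part of this difference, so these counts are a description. A read set common to both controls would draw the control ratios towards 0, which could lower the control calls and widen these differences. No test of a difference between the arms is possible with 1 library a group.

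**Figure D4:**
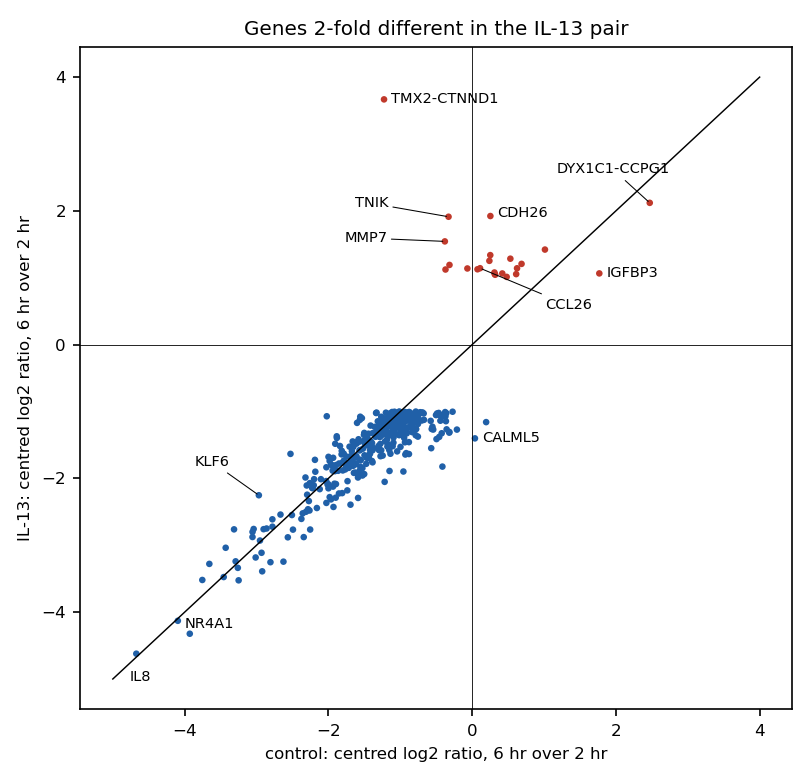
Genes called in the IL-13 pair, with the centred log2 ratio of 6 hr over 2 hr in the control on the x axis and with IL-13 on the y axis; the diagonal marks equal ratios, and genes not reported here are not drawn. Lower genes (blue) lie along the diagonal from IL8 upwards, while most higher genes (red) lie above it near a control ratio of 0. The y value is the ratio by which the genes were called, and a read set common to both controls would draw the x values towards 0.

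The 24 hr libraries, of 13.6 and 14.02 M reads and from a table of their own, show where the lower genes stood later, as plain ratios of RPKM without centring. With IL-13, 162 of the 383 were at least 2-fold higher at 24 hr than at 6 hr, 61 were at or under 50% of the 6 hr value, and 160 lay between. Over all 11896 genes 12.6% were at least 2-fold higher and 5.18% at or under 50% (control 13.7% and 6.08%). The 383 were chosen for a low value at 6 hr, which also enters these ratios, so the counts are a description. Of the 19 lower immediate early factors 12 were at least 2-fold above 6 hr and 6 had reached their level of 2 hr or more, for example EGR1 at 57.9 RPKM and FOSL2, an AP-1 subunit, at 53.8. Of the 16 lower interferon-stimulated genes 14 were at least 2-fold above 6 hr and 13 at or above their 2 hr level, with OASL at 332 RPKM against 51.9 at 2 hr. Of the 7 lower metallothionein and zinc genes, by contrast, 0 were 2-fold above 6 hr and 6 were at or under 50% of 6 hr, with MT2A at 312 RPKM. Of the 7 lower SRF, YAP and TGF-beta targets 0 were 2-fold above 6 hr and 4 were at or under 50%, with THBS1 at 29.5 RPKM and TAGLN at 3.504.

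Single genes followed either course. IL8 stood at 53.4 RPKM at 24 hr and ERRFI1 at 126, whereas IL24 was listed at 0 and INHBA stood at 1.77. SEMA7A, a membrane-bound semaphorin, stood at 16.7, 1.67 and 0.299 RPKM over the 3 times. In the control the counts were alike, with 12 of the 19 immediate early factors and 14 of the 16 interferon-stimulated genes at least 2-fold above 6 hr. Of the higher genes, CCL26 at 166 RPKM, CDH26 at 10.8 and PAPSS2 at 32.8 were higher still at 24 hr of IL-13, while MMP7 at 9.43 and TNIK at 1.95 were not.

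The histone marks were measured at 6 hr, and a mark was counted for a gene when the authors' table lists a peak at its start. H3K27Ac, a mark of active promoters and enhancers, was listed at 93.6% of all genes compared, at 89.3% of the lower genes (95% exact binomial interval 85.8 to 92.2%) and at 79.2% of the 24 higher genes (57.8 to 92.9%). H3K4me3, a mark of active promoters, was listed at 90.7% of all, 74.9% of the lower (70.3 to 79.2%) and 41.7% of the higher genes (22.1 to 63.4%). H3K9Ac stood at 93.0%, 83.0% and 62.5%. All 3 marks were listed at 90.1% of all genes, 73.4% of the lower and 37.5% of the higher. No mark was listed at 5.62% of all genes, 9.66% of the lower and 16.7% of the higher, among the last the read-through transcripts TMX2-CTNND1 and DNAJC25-GNG10. These intervals cover counting error alone. The sets also differed in abundance, with a median at 6 hr of IL-13 of 11.3 RPKM over all genes, 3.92 for the lower and 3.33 for the higher. The shares were not matched for abundance. DUSP1, TNFAIP3, EGR1 and TNIK had all 3 marks, whereas IL8, CCL26, CDH26 and MMP7 had H3K27Ac and H3K9Ac without a listed H3K4me3 peak. Which library of a mark was treated is not stated in the tables, so no direction of treatment was taken from them. The lower genes were also shorter, with a median span of 16186 bp against 24674.5 bp over all genes, and the higher genes had one of 13533 bp.

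A promoter of exactly 1 RefSeq start was matched for 6665 of the 11896 genes, 208 of the 383 lower and 11 of the 24 higher, and was searched on both strands over 250 bases. TATAAA was found in 4.79% of all promoters and 17.3% of those of lower genes. Among the 38 promoters of genes at least 4-fold lower it was found in 34.2%, and in 13.5% of the other lower genes. TGANTCA, the AP-1 sequence, was found in 3.496% of all, 11.5% of the lower genes and 10.5% of those at least 4-fold lower. The NF-kB site was found in 18.8% of all, 25% of the lower and 28.9% of those at least 4-fold lower. The CArG box was found in 0.855% of all, 1.92% of the lower (4 of 208) and 0 of the 38 at least 4-fold lower. TGACGTCA stood at 3.33% and 3.85%, close to each other. The STAT6 site, TTC and GAA with 4 bases between them, was found in 3.81% of all and 4.33% of the lower promoters. Of the 11 higher promoters, 2 held TATAAA, 2 TGANTCA and 2 an NF-kB site (18.2% each). A CArG box was in 1 of them, and TGACGTCA and the STAT6 site in 0. With 11 promoters no comparison with the lower genes is possible, so no match can be called particular to them. A match describes the letters of this window and is neither a bound site nor a cause.

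**Figure D5:**
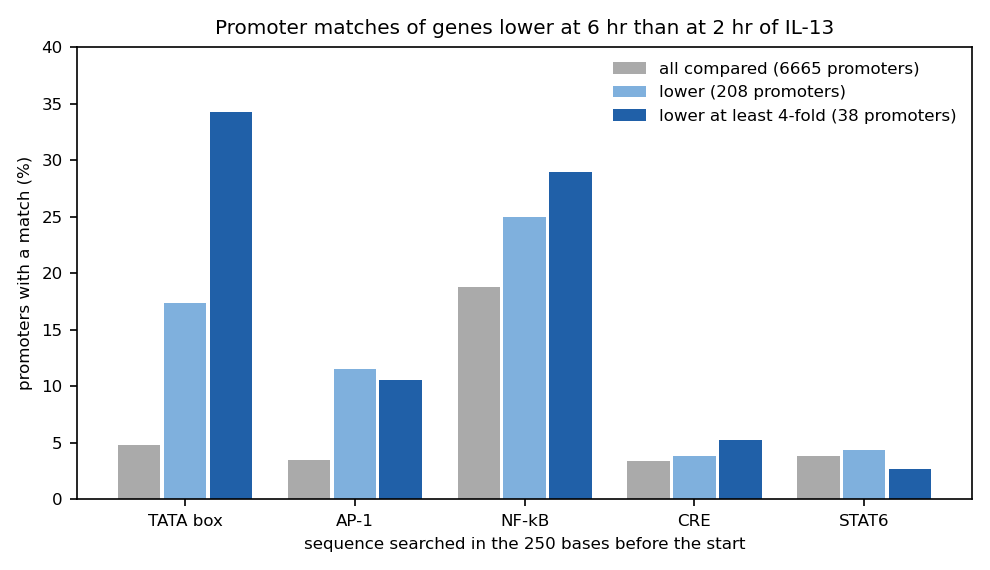
Bars give the share of promoters, in percent, that hold a match to each sequence on the x axis in the 250 bases before the start, for all 6665 promoters (grey), the 208 of lower genes (light blue) and the 38 of genes at least 4-fold lower (dark blue). The TATA box rises over the 3 sets from 4.79% to 34.2%, while the CRE bars run from 3.33% to 5.26%. The 11 promoters of higher genes are not drawn, and 2 of them held a TATA box.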

How the data were processed

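RNA of TE-7 cells was measured in 6 libraries, 1 for each treatment and time. The authors deposited RPKM for each gene and library, per the file headers. Build hg19, TopHat2 2.0.9 with DESeq (RNA), and Bowtie 1.0.0 with MACS2 2.0.10.20130712 (ChIP-seq) are listed in the submitters' processing notes. How reads were counted or pooled, and with which annotation, is not given in the sources used here. The ChIP tables deposited by the authors hold a mean log2 level per peak, per the file headers; only whether a peak is listed at a gene's start was used. As the libraries of a mark could not be assigned, 6 columns of reads per library were not used.

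From the RPKM, the centred log2 ratio of 6 hr over 2 hr was computed with 0.1 added, for genes of at least 1 RPKM in either library and 300 bp. With 1 library a group no count model or test was used. The rule was tested on simulated data with 200 changed genes. The genes named are the 15 largest and 15 smallest ratios called, up to 5 called members of each list with the largest ratios in size, and CCL26, SOCS1, CISH, GCNT3, HAS2, HAS3, SERPINB4, FOS, EGR1 and JUN; others named as contrasts or examples, such as TP63, KLF4, IFIT2 and PLK1, were chosen after their values were seen. Some genes that the rule takes are not reported here. The members and the 25 pathway lists were chosen with earlier results of these data known. Alternatives were other added values, centring, minimum RPKM, span and fold limits. Depth was read from low RPKM values, of which 91.0% to 94.9% lay within 0.5% of a step. Promoters are from RefSeq (GRCh38.p14), used for sequence only, while positions of genes are hg19 as deposited. The tools were matplotlib 3.10.9, SciPy 1.17.1, pandas 2.3.3 and NumPy 2.4.6 under Python 3.11.15.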

Additional observations from a re-analysis of the deposited data

Results flagged for a closer look

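The read-through transcript TMX2-CTNND1 (chromosome 11, 57479995 to 57586652, plus strand, hg19) had opposite ratios in the 2 arms: it was listed at 0 at 2 hr and stood at 1.26 RPKM at 6 hr of IL-13, a ratio of 3.67 that depends on the 0.1 added to RPKM, and it stood at 1.44 and 0.603 RPKM in the control, a ratio of -1.23. Each arm has 1 library a time, and the difference was not tested. The transcript overlaps TMX2 and CTNND1, which can share its reads, and it was listed at 0 in both libraries of 24 hr.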

How the results depend on the processing

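The 24 higher genes became 12 with 1 added to RPKM, 40 with a minimum RPKM of 0.5, 7 with a minimum of 5, 54 with no minimum span and 215 at a 1.5-fold limit. They became 31 without centring and 23 when centred on housekeeping genes. The 383 lower genes became 255 with a minimum RPKM of 5 and 946 at a 1.5-fold limit, and lay between 261 and 463 under the other 5 alternatives. The 277 called genes with the same call in the control pair became 756 at a 1.5-fold limit. Lower genes were 94.1% of calls, and between 81.5% and 97.3% under the alternatives, with the lowest share at a 1.5-fold limit. No named gene changed sign under any alternative run, and of the list medians 2 near 0 did: that of the histone genes went from -0.04 to 0.06 without centring and 0.04 with a minimum RPKM of 5, and that of the brain markers from -0.03 to 0.07 without centring. With 1 added to RPKM, 14 of 97 named genes lost their call, and with a minimum RPKM of 5, 24 did; HAS2 reached the limit at -1.02 when centred on housekeeping genes. List medians moved to -1.27 (MAP kinase feedback), -0.67 (squamous differentiation), -0.70 (chemokines) and -1.34 (metallothioneins) with 1 added. With a minimum RPKM of 5 they moved to -1.84 (MAP kinase feedback), -0.67 (EGF family), -0.92 (SRF, YAP and TGF-beta), -0.99 (clock), -0.46 (squamous differentiation), -0.34 (chemokines) and -1.99 (fibroblast), and with 0.5 the fibroblast median moved to -0.59. No paired analysis was possible because each group has 1 library. Leaving out a library was not possible for the same reason. Depth limits the low values: 1 RPKM in a gene of 1 kb stands for 29.1 reads at 2 hr and 34.7 at 6 hr, and counting error alone gave FOXC2, at 14.95 and 3.18 RPKM, an interval of -2.53 to -2.06 around its ratio of -2.29.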

Other observations

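If a read set of 15.7 M reads entered both controls, its level of a gene is at most 2 times the 6 hr control value when the sets were averaged with equal weight. For IL8 that limit is 14.3 RPKM, which would leave the other 2 hr control set at 331 RPKM or more, above the 212 RPKM of the 2 hr IL-13 library. The same bound is 35.05 RPKM for NR4A1, 60.3 for DUSP1 and 199 for CDKN1A, against 16.8, 28.3 and 99.1 RPKM with IL-13. The weighting of the sets is not stated, so these bounds are conditional on it. The 2 hr IL-13 library also lay on the steps of 2 read sets, whose separate levels are not known. A bound on 1 control set is therefore not like for like with the IL-13 values, and no difference between the arms follows from it.

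Genes higher at 6 hr in the control alone were few. LCN2, the siderophore-binding lipocalin of inflamed epithelium, went from 0.934 to 4.53 RPKM among control libraries and from 1.01 to 1.95 among IL-13 libraries. Both arms were higher at 24 hr, 10.6 RPKM with IL-13 and 8.70 without.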
